A study of Homo sapiens with 6 samples.

Results

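The genes described here build the machinery that brings proteins into mitochondria, folds them there and cuts or removes them, and most of them were lower in aggregates of RL lymphoma cells than in suspension cells. The list held 41 human genes in 5 role groups: 11 of the outer membrane, 7 of the intermembrane space, 11 of the inner membrane and its import motor, 4 matrix chaperones, and 8 proteases with the processing peptidase and a prohibitin. A probe set, the set of short oligonucleotides that reads out a transcript on the array, belonged to a gene when the platform annotation gave that gene's symbol alone. This gave 95 of 54675 probe sets, for 39 of the 41 genes. TOMM6 and TOMM7 were annotated on probe sets shared with another gene only, and the TIMM23 probe set of its own had a signal of 17.7 in MALC and 17.6 in suspension, below the filter at 53.4. The other 38 genes were tested, and the lowest group mean among them was 143 in MALC and 211 in suspension, so that each of them was above the filter in both groups.

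The study measured total RNA of the RL cell line, an established human B lymphoid line recorded as t(14,18)+, the translocation typical of follicular lymphoma, on Affymetrix U133 Plus arrays. MALC, multicellular aggregates of these cells, were collected after 10 days of culture (3 arrays), and suspension cells in exponential growth, with no culture time stated (3 arrays). All 6 samples were untreated and came from this single line. Culture form, culture time and growth phase differ together between the groups and cannot be told apart. Nothing in the labels says whether the 3 samples of a group are separate cultures. The p-values therefore reflect the sample-to-sample spread alone, and that spread may be technical.

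Nearly all mitochondrial proteins are made in the cytosol and enter through the translocase of the outer membrane (TOM). Small chaperones of the intermembrane space and a translocase for carrier proteins (TIM22) serve the membrane-spanning precursors, while the presequence translocase (TIM23) and its ATP-driven motor pull other precursors into the matrix. There a processing peptidase removes the presequence, chaperonins fold the protein, and proteases remove what is damaged or surplus, a system on which the respiratory chain of dividing lymphoid cells depends.

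The 6 arrays had median signals of 80.7 to 81.7. Precision is limited by how few arrays there are. Pearson correlations across all probe sets were 0.995 to 0.998 within groups and 0.977 to 0.989 between groups, and samples 2 and 3 were the most alike pair in both groups (0.998 in MALC, 0.998 in suspension). Signals of 5 B cell markers, all above the filter, summed to 27829 to 31909 in MALC, against 28004 to 33433 in suspension. Summed signals of T cell markers were 271 to 280 in MALC and 283 to 309 in suspension (3 of 4 above the filter), of monocyte markers 135 to 150 and 143 to 158 (1 of 4), of epithelial markers 208 to 242 and 218 to 225 (2 of 3), and of endothelial markers 235 to 248 and 240 to 292 (2 of 3). Stromal markers summed to 516 to 569 in MALC and 599 to 1051 in suspension (4 of 5 above the filter), with COL1A2, a fibrillar collagen chain, at 46.0 to 54.2 in MALC and suspension 1, 347 in suspension 2 and 127 in suspension 3. The part of these transcripts in the results was not tested.

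The stretches upstream of 5 members are shown because they carry some of the motifs searched for, in genes that fell and in genes that did not pass. RefSeq promoter entries (GRCh38.p14) were found for 36 of the 41 members, and not for TOMM5, TIMM8B, GRPEL1, CLPP and YME1L1. Each window holds the 250 bases before an annotated start, written 5′ to 3′ on the gene's own strand, and capitals mark matches on either strand to GCATGCGC (the NRF1 motif) in CHCHD4, LONP1 and TIMM9, to CCGGAAG (the ETS motif) in TIMM10, and to CACGTG (the E-box) in HSPE1. The windows are chr2:197500129-197500378 (plus strand) for HSPE1, chr3:14124871-14125120 (minus strand) for CHCHD4, chr11:57530755-57531004 (minus strand) for TIMM10, chr19:5720453-5720702 (minus strand) for LONP1 (1 of 2 annotated starts) and chr14:58427532-58427781 (minus strand) for TIMM9.
HSPE1: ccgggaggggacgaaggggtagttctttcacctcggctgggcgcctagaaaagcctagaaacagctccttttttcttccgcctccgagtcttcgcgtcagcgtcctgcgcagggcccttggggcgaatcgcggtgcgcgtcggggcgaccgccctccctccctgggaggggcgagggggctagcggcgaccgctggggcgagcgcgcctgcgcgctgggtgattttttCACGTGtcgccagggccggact
CHCHD4: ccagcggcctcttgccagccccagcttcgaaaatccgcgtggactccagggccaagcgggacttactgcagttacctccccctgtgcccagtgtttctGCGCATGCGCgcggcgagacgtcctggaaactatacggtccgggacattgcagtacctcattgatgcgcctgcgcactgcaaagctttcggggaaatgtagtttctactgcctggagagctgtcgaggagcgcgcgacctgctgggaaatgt
TIMM10: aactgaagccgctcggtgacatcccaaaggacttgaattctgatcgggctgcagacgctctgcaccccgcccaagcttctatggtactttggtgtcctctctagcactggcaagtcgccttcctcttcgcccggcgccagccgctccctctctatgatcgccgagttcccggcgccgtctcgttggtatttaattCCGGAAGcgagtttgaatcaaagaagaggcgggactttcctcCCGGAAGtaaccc
LONP1: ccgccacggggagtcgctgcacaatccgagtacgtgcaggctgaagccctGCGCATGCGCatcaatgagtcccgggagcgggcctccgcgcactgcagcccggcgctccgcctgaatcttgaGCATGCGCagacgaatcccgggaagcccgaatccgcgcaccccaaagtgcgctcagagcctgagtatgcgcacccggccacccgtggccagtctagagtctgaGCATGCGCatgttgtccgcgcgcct
TIMM9: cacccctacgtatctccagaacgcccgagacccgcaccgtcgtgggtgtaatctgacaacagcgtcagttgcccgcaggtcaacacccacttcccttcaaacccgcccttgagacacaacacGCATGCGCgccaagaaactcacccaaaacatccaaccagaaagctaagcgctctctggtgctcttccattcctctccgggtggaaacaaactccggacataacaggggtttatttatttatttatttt

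The HSPE1 window shares 104 bases with 1 of the 2 windows of HSPD1, its neighbour on the opposite strand. The E-box shown lies in this HSPD1 window too, while the other HSPD1 window does not overlap that of HSPE1. The 2 NRF1 matches of CHCHD4 overlap, as do 2 of the 4 in LONP1, and each is counted as a match in its own right. GCATGCGC was found in the windows of 5 of 36 members (13.9%) and of 3.22% of all 27305 genes with an entry. Of these members CHCHD4 and PAM16 were lower in MALC, LONP1 and TIMM9 did not pass the test, and TOMM7 was not tested. CCGGAAG was found in 10 members (27.8%) and in 10.2% of all genes, and CACGTG in 5 members (13.9%) and 7.73% of all genes. The E-box that HSPD1 and HSPE1 share is a single site counted for each of them. LONP1 is counted for CCGGAAG and CACGTG through its other window, which is not shown. AAGATGGC (YY1) was found in 1 member (2.78%, against 1.64% of all genes), TGATGNAA (the CARE motif of the amino acid response) in 2 (5.56%, against 3.89%), and GAANNTTC (a core of the heat shock element) in 1 (2.78%, against 7.05%). Member windows had a median GC content of 64.6%, against 58% over the windows of all genes, and the part of base composition in these shares was not tested.

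Of the 38 members tested, 28 were lower in MALC (73.7%), 0 were higher and 10 did not pass. A gene was called when its adjusted p in limma, with Benjamini-Hochberg adjustment over 13765 genes, was below 0.05. By the same rule 23.7% of all genes were lower in MALC, 19% were higher and 42.7% changed in either direction. The median log2 change of the members, MALC minus suspension, was -0.48 (0.716-fold), and that of all genes -0.06. At least a 1.5-fold fall was measured for 12 members, against 6.34% of all genes, and a 2-fold fall for TOMM40 and GRPEL1. The 3 MALC and 3 suspension values did not overlap in 32 members, and 56.9% of all genes showed the same. An unadjusted p below 0.05 was found for 30 members, and for 51.5% of all genes. In these bulk samples, fewer cells of a type and less RNA per cell cannot be told apart. With samples 2 and 3 of each group averaged into 1, 18 members were lower, against 8.08% of all genes, and TOMM5, TOMM70, MTX1, MTX2, TIMM22, TIMM44, GRPEL2, TRAP1, PMPCA and PHB2 no longer passed. The changes of these 10 genes were then -0.52 to -0.18, against -0.55 to -0.18 with all arrays. Against suspension 1 alone, without the 2 arrays with the higher COL1A2 signals, the member median was -0.55. In that fit the MALC arrays alone give the spread, and the lone suspension array is assumed to vary like them. There 20 members were lower, against 9.99% of all genes, and the 8 that no longer passed (TOMM70, MTX1, MTX2, TIMM44, GRPEL2, HSPA9, TRAP1 and PMPCA) had changes of -0.66 to -0.34, against -0.60 to -0.23 with all arrays.

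**Figure D1:**
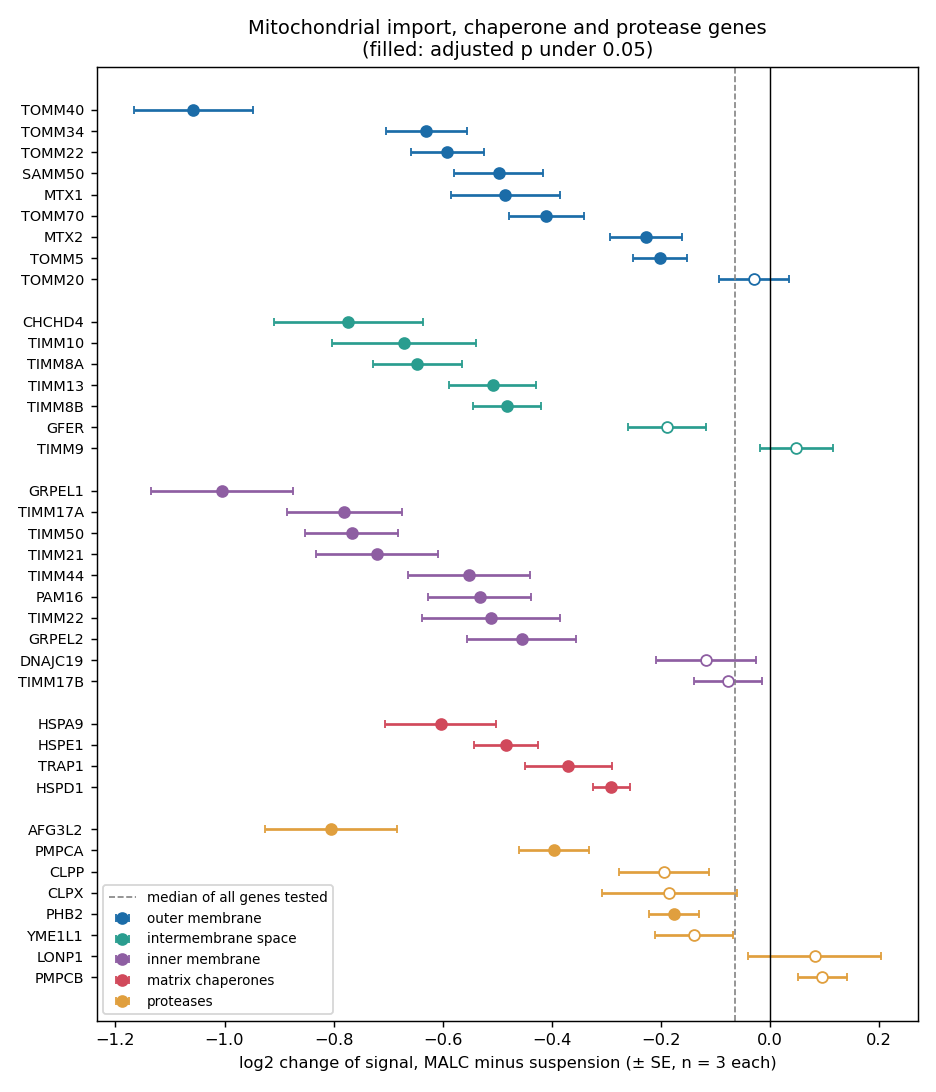
Log2 change of signal in MALC minus suspension for each of the 38 members tested, by role group, with the SE of the fit (n = 3 arrays each); filled points passed the adjusted threshold and the dashed line is the median of all genes tested, -0.06. The points run from -1.06 (TOMM40) to 0.10 (PMPCB), and 35 lie below 0.

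In the outer membrane group, 8 of 9 members tested were lower, against 23.7% of all genes, with a median of -0.49. TOMM40 is the channel through which precursors cross the outer membrane. Its signals were 935, 812 and 688 in MALC 1, 2 and 3, against 1713, 1655 and 1712 in suspension 1, 2 and 3. The groups did not overlap, and TOMM40 averaged 812 ± 123 in MALC and 1693 ± 32.9 in suspension (SD, n = 3 each), 2.08-fold lower in MALC by the fit (-1.06 ± 0.11 on the log2 scale, SE; adjusted p = 0.000489). TOMM34, a cytosolic protein that binds precursors and Hsp70/Hsp90, gave 654, 587 and 598 in MALC and 1006, 944 and 922 in suspension. All its MALC values lay below all suspension values (-0.63 ± 0.07, adjusted p = 0.000749). TOMM22, the central receptor of the complex, had 3621, 3211 and 3133 in MALC against 5131, 4970.2 and 4912 in suspension, again without overlap (-0.59 ± 0.07, adjusted p = 0.000663).

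SAMM50, the core of the machinery that inserts barrel proteins into the outer membrane, changed by -0.50 (adjusted p = 0.00255). Its partners MTX1 and MTX2, the metaxins, changed by -0.49 (adjusted p = 0.00665) and -0.23 (adjusted p = 0.0263). The receptor for carrier precursors, TOMM70, changed by -0.41 (adjusted p = 0.00276), and the small TOM subunit TOMM5 by -0.20 (adjusted p = 0.0132). MTX2 did not pass without MALC 2 (adjusted p = 0.0802), MALC 3 (0.0871) or suspension 2 (0.0551), and TOMM5 without MALC 3 (0.0524). Under quantile normalization neither passed (0.0684 for MTX2, 0.0591 for TOMM5). TOMM20, the presequence receptor, had 9568, 8148 and 8257 in MALC and 8779.7, 8796 and 8859 in suspension. MALC 1 was the highest and MALC 2 and 3 the lowest of these 6 values, so the groups overlapped (-0.03 ± 0.06, adjusted p = 0.74; without MALC 1, -0.10 and 0.0471). A further TOMM20 probe set had 7386, 7821 and 7779 in MALC against 5508, 5095 and 5106 in suspension. That probe set rose in MALC without overlap (0.55, adjusted p = 0.000351), so the direction for TOMM20 depended on the probe set.

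In the intermembrane space group, 5 of 7 members were lower, against 23.7% of all genes, with a median of -0.51. CHCHD4 is the oxidoreductase that traps small cysteine-rich proteins by giving them disulfide bonds. It had 1279.6, 1019 and 945 in MALC and 2154, 1703 and 1708 in suspension. The groups did not overlap, with sample 1 the highest of each (-0.77 ± 0.14, adjusted p = 0.00346). GFER, the sulfhydryl oxidase that recharges CHCHD4, had 430.2, 426 and 390.1 in MALC against 498, 466 and 462 in suspension. Its values did not overlap, but it did not pass the test (-0.19 ± 0.07, adjusted p = 0.0653; 0.0491 without MALC 1).

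TIMM9 and TIMM10 form the small chaperone complex that carries hydrophobic precursors across this space, and TIMM8A and TIMM13 form another. TIMM10 had 3747, 3011 and 2809 in MALC and 5929, 4687 and 4633 in suspension. Its groups did not overlap (-0.67 ± 0.13, adjusted p = 0.00538). TIMM8A had 435, 491 and 409 in MALC and 697, 704 and 710.3 in suspension, and was lower on every MALC array (-0.65 ± 0.08, adjusted p = 0.000929). TIMM13 changed by -0.51 (adjusted p = 0.00216). TIMM8B, a close relative of TIMM8A, changed by -0.48 (adjusted p = 0.00104), while its other probe set differed by 0.16 and did not pass (adjusted p = 0.147), nor did the mean of both (-0.16, adjusted p = 0.0698). TIMM9, the partner of TIMM10, had 1339, 1446 and 1469 in MALC and 1408, 1329 and 1375 in suspension. These values overlapped and showed no difference past the threshold (0.05 ± 0.07, adjusted p = 0.593).

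Of the 10 inner membrane members tested, 8 were lower, against 23.7% of all genes, with a median of -0.54. GRPEL1 is the nucleotide exchange factor of the mitochondrial Hsp70 in the import motor. Its signals were 1774, 1321 and 1222 in MALC and 2963, 2852 and 2786 in suspension. GRPEL1 averaged 1439 ± 294 in MALC and 2867 ± 89.2 in suspension (SD, n = 3 each), and the fit gave a 2.01-fold fall without overlap (-1.0045 ± 0.13, adjusted p = 0.00106). The other kept GRPEL1 probe set changed by -0.69 (adjusted p = 0.000605). GRPEL2, the paralogue of GRPEL1, had 869, 728 and 691 in MALC and 1043, 989 and 1111 in suspension, also without overlap (-0.46 ± 0.10, adjusted p = 0.00856). TIMM44, which tethers the Hsp70 to the translocase, changed by -0.55 (adjusted p = 0.00613), and PAM16, a J-like regulator of the motor, by -0.53 (adjusted p = 0.00337). DNAJC19, a J protein of the inner membrane, did not pass (-0.12 ± 0.09, adjusted p = 0.329), although its second probe set did (-0.32, adjusted p = 0.0352).

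In the TIM23 translocase, TIMM17A, a structural subunit of the channel, had 4655, 3702 and 3575 in MALC and 7373, 6454 and 6596 in suspension. The groups did not overlap (-0.78 ± 0.11, adjusted p = 0.0012). Its paralogue TIMM17B had 965, 968 and 944 in MALC and 1043, 1004 and 991 in suspension. These values were narrowly apart and did not pass (-0.08 ± 0.06, adjusted p = 0.342). TIMM50, the receptor of the translocase, had 2111, 1888 and 1773 in MALC and 3529, 3239 and 3077 in suspension, without overlap (-0.77 ± 0.09, adjusted p = 0.000624). TIMM21, which links the translocase to respiratory chain assembly, changed by -0.72 (adjusted p = 0.00204). TIMM22, the pore of the carrier translocase, changed by -0.51 (adjusted p = 0.0141) and did not pass without MALC 2 (adjusted p = 0.0567) or MALC 3 (0.0527). The other kept probe sets of TIMM22 changed less, by -0.25 (adjusted p = 0.0301) and -0.18 (adjusted p = 0.135, not passed).

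The channel subunit TIMM23 could be read only on 3 probe sets annotated to TIMM23 and TIMM23B together, which are not counted among the members. The first had 2132, 1537 and 1405 in MALC and 3657, 3557 and 3408 in suspension (-1.08, adjusted p = 0.00115). The others changed by -0.997 (adjusted p = 0.000699) and -0.91 (adjusted p = 0.00072). All 3 were lower in MALC without overlap, and the share of either gene in these signals is not known. The probe set of TOMM7, a small TOM subunit, shared with C4orf46, averaged 12010 ± 388 in MALC and 10078 ± 464 in suspension (SD, n = 3 each; 0.25, adjusted p = 0.00399). Both probe sets shared by TOMM6, another small TOM subunit, and PRICKLE4 were lower (-0.18, adjusted p = 0.00795; -0.20, adjusted p = 0.0217).

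All 4 matrix chaperones were lower, against 23.7% of all genes, with a median of -0.43. HSPA9, the mitochondrial Hsp70 that drives the motor and folds incoming chains, had 6932, 5478 and 5220.0 in MALC and 9229.5, 8786 and 8610.2 in suspension. It fell without overlap (-0.60 ± 0.10, adjusted p = 0.00281). HSPE1, the lid of the chaperonin, had 7988, 7728 and 7136 in MALC and 11184, 10121 and 10664 in suspension, again without overlap (-0.48 ± 0.06, adjusted p = 0.000807). HSPD1, the barrel of the same chaperonin, had 20546, 19825 and 19249.9 in MALC and 24729, 23899.6 and 24309 in suspension. Its groups did not overlap (-0.29 ± 0.03, adjusted p = 0.0007), and the mean of its kept probe sets, dim ones included, changed by -0.41. TRAP1, the mitochondrial Hsp90, had 2664, 2367 and 2251 in MALC and 3310.2, 3136 and 2965 in suspension, with all MALC values lower (-0.37 ± 0.08, adjusted p = 0.0081).

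**Figure D2:**
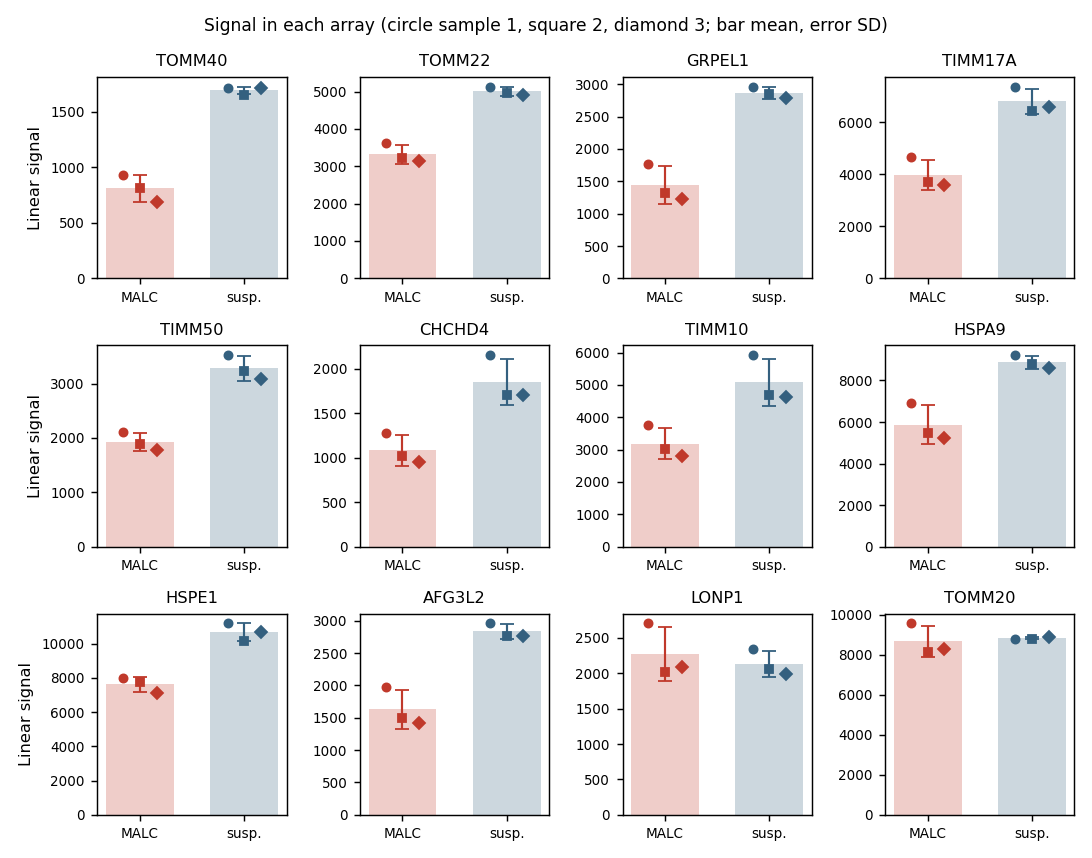
Linear signal of 12 members on each array, MALC left and suspension right; bars are means, error bars SD (n = 3 each), and marker shapes give the sample number. MALC lies below suspension without overlap in 10 panels, while LONP1 (2709 in MALC 1) and TOMM20 overlap.

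Among the proteases, the processing peptidase and the prohibitin, 3 of 8 were lower, against 23.7% of all genes, with a median of -0.18. AFG3L2, a subunit of the protease of the inner membrane that faces the matrix, had 1978, 1501 and 1419 in MALC and 2962, 2771 and 2771 in suspension. It fell without overlap (-0.80 ± 0.12, adjusted p = 0.00184). YME1L1, the related protease that faces the intermembrane space, had 5176, 4506 and 4403 in MALC and 4959, 5247 and 5288 in suspension. MALC 1 lay above suspension 1, and YME1L1 did not pass (-0.14 ± 0.07, adjusted p = 0.15). PHB2, a prohibitin that forms a ring scaffold around the matrix-facing protease, had 13393, 13030.0 and 12651 in MALC and 15422, 14742 and 14007 in suspension, without overlap (-0.18 ± 0.05, adjusted p = 0.0168). PHB2 did not pass without MALC 2 (adjusted p = 0.0595), MALC 3 (0.0642) or suspension 2 (0.0553), nor when limma was run with no trend (0.0518).

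LONP1, the main soluble protease of the matrix, had 2709, 2021 and 2084 in MALC and 2341, 2065 and 1989 in suspension. MALC 1 was the highest of the 6, the other values overlapped, and LONP1 did not pass (0.08 ± 0.12, adjusted p = 0.614). CLPP, the proteolytic core of the other soluble matrix protease, had 1513, 1453 and 1414 in MALC and 1866, 1592 and 1576 in suspension. Its groups did not overlap, and it did not pass (-0.20 ± 0.08, adjusted p = 0.0937). It passed with the sample number as a replicate block (adjusted p = 0.0444) or as a block of 2 levels (0.0172), with array weights (0.0238), and without sample 1 of both groups (0.0165). CLPX, the unfoldase that feeds CLPP, did not pass (-0.19 ± 0.12, adjusted p = 0.257). PMPCA, the substrate-binding subunit of the processing peptidase, had 1176, 1149 and 1079.8 in MALC and 1478, 1516 and 1499 in suspension, and fell without overlap (-0.40 ± 0.06, adjusted p = 0.00242). PMPCB, its catalytic subunit, had 6417, 6490.2 and 6266 in MALC and 5799, 6111 and 6039.9 in suspension. Every MALC value of PMPCB was the higher one, but the difference did not pass (0.10 ± 0.04, adjusted p = 0.124). Without MALC 1, CLPX (-0.31, adjusted p = 0.033) and YME1L1 (-0.21, adjusted p = 0.00957) passed as well, so that 5 of 8 were lower. In that fit 3626 of 13765 genes were lower. CLPX and YME1L1 also passed without sample 1 of both groups (adjusted p = 0.00261 and 1.35e-05), where 4246 of all genes were lower. With array weights they passed too (adjusted p = 0.0354 and 0.000754), and 5230 of all genes were lower.

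Partners and paralogues were set against each other as the difference of their log2 changes, for 9 pairs. With 3 arrays against 3, the two-sided exact permutation test cannot go below 0.1, so no pair could pass. After adjustment over the 9 pairs the smallest value of this test was 0.129. TIMM9 minus TIMM10 gave 0.72 (exact permutation p = 0.1). TIMM17A minus TIMM17B gave -0.70, YME1L1 minus AFG3L2 0.66, and GRPEL1 minus GRPEL2 -0.55. PMPCA minus PMPCB gave -0.49, MTX1 minus MTX2 -0.26, and HSPD1 minus HSPE1 0.19. In these 7 pairs the 2 groups of within-array differences did not overlap, and each had the smallest p the design allows. Of all single genes, 56.9% did not overlap, and how often other pairs of genes do so was not tested. TIMM8A minus TIMM8B (-0.16, exact permutation p = 0.2) and CLPP minus CLPX (-0.01, exact permutation p = 1) overlapped.

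The same arrays were high or low for most members. Their mean deviation from each gene's mean over the 6 arrays was -0.08, -0.25 and -0.31 on the log2 scale in MALC 1, 2 and 3, against 0.29, 0.18 and 0.18 in suspension 1, 2 and 3. MALC 1 held the highest MALC value for 33 of 38 members, and suspension 1 the highest suspension value for 31. MALC 3 was the lowest MALC array for 31 members. These counts of highest and lowest arrays are not given over all genes, so they do not set the members apart. MALC 1 was the MALC array nearest to the suspension mean for 32 of 38 members, and for 56.3% of all genes tested. The median SD of a member within a group was 0.13 in MALC and 0.07 in suspension on the log2 scale. The proteases were the only role group with a mean above 0 on a MALC array (0.03 in MALC 1), and their mean lay closest to 0 on all 6 arrays.

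**Figure D3:**
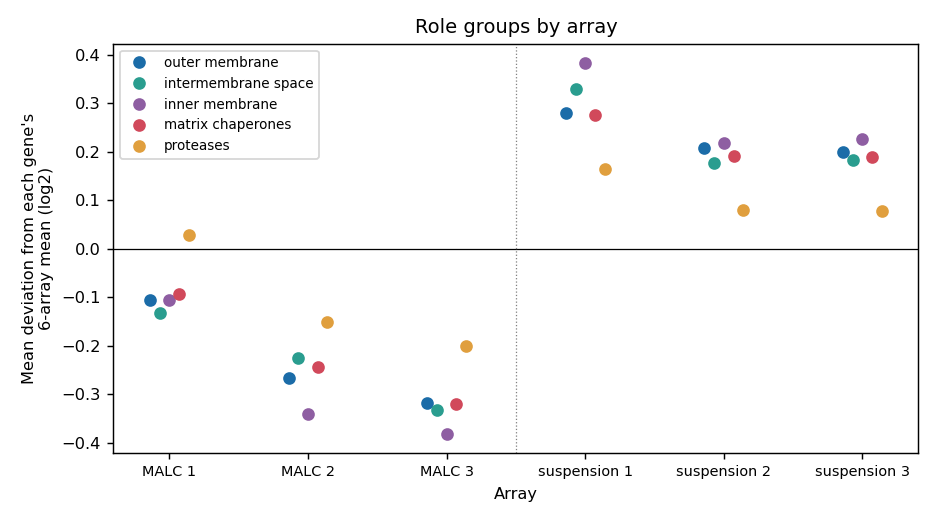
Mean deviation (log2) of each role group's tested members from their own mean over the 6 arrays, by array, MALC left and suspension right. All groups lie above 0 in suspension, and all but the proteases in MALC 1 (0.03) lie below 0 in MALC.

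Members with several probe sets mostly gave the same sign on each. Of the 95 probe sets, 72 passed the filter: 48 were lower in MALC, 2 were higher and 22 did not pass the test. Over all kept probe sets 20.4% were lower and 21.2% higher. Of the 20 members with at least 2 kept probe sets, 16 had 1 sign throughout, and TOMM20, TIMM8B, CLPX and YME1L1 had both. No member had calls in both directions, and 18 members rested on 1 kept probe set. For HSPD1, 3 of 4 kept probe sets were lower and the changes ran from -0.98 to -0.03. The ends of this range were dim probe sets, with means of 89.2 and 99.1 in MALC. The bright HSPD1 probe sets, with means of 19874 and 14539 in MALC, changed by -0.29 and -0.33. For HSPA9 all 3 were lower (-1.08 to -0.60). YME1L1 was annotated on 20 probe sets, of which 8 were kept, 7 did not pass and 1 was higher (0.37, adjusted p = 0.0114).

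**Figure D4:**
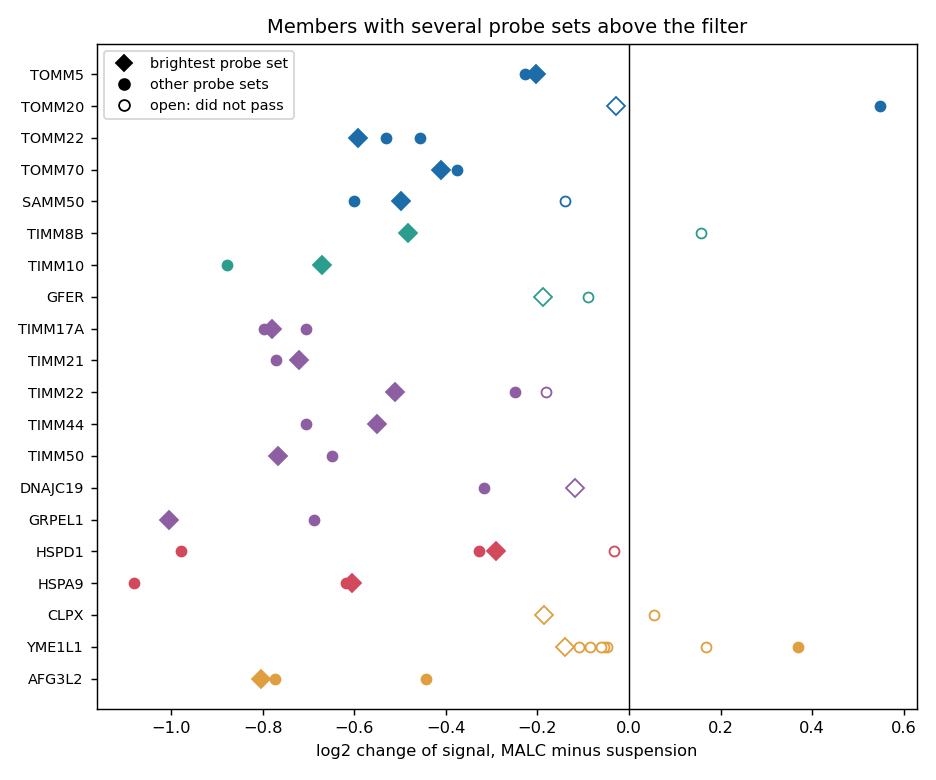
Log2 change in MALC minus suspension of every kept probe set of the 20 members with at least 2; diamonds are the brightest probe set, which stands for the gene, and filled symbols passed the adjusted threshold. TOMM20 (-0.03 and 0.55) and YME1L1 (-0.14 to 0.37) have a probe set that was higher in MALC.

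Other genes of the same system were taken from 4 further lists. Among other import and quality control genes, 10 of 23 tested were lower and 4 higher, with a median of -0.23, where 23.7% of all genes were lower and 19% higher. DNLZ, a helper of the mitochondrial Hsp70, had 236, 226 and 178 in MALC and 399, 391 and 368 in suspension (-0.82 ± 0.10, adjusted p = 0.00101). TOMM40L, a paralogue of TOMM40, had 406, 364 and 332 in MALC and 724, 615 and 598 in suspension (-0.79 ± 0.10, adjusted p = 0.00108). PHB1, the prohibitin that pairs with PHB2, had 3171, 3091 and 2641 in MALC and 5451, 4804 and 4648 in suspension (-0.74 ± 0.09, adjusted p = 0.000861). In these 3 genes the groups did not overlap. The 4 that rose were OMA1, a stress-activated protease (0.34), HSCB, a co-chaperone of iron-sulfur cluster assembly (0.31), OXA1L, an insertase of the inner membrane (0.29), and ROMO1, a small inner membrane protein (0.15, adjusted p = 0.0469).

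Carriers of the inner membrane and porins, which are cargo of this machinery, were lower in 10 of 20 and higher in 2, with a median of -0.24. Of all genes, 23.7% were lower and 19% higher. SLC25A32, a folate and flavin carrier, had 2291, 1659 and 1521 in MALC and 4057, 4054 and 4149 in suspension (-1.18 ± 0.14, adjusted p = 0.000763). SLC25A33 and SLC25A36 both carry pyrimidine nucleotides, and they changed in opposite directions. SLC25A33 had 1730.2, 1626 and 1499 in MALC and 2847, 3012 and 3087 in suspension (-0.88 ± 0.07, adjusted p = 0.000283). SLC25A36 had 5943, 6299.5 and 6718 in MALC and 3153, 3076 and 3043 in suspension, without overlap and higher in MALC (1.03 ± 0.06, adjusted p = 8.05e-05).

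Among regulators of mitochondrial biogenesis and stress, 5 of 16 were lower and 2 higher, with a median of -0.03. The share that changed, 43.8%, was near the 42.7% of all genes. The coactivators PPARGC1B and PPRC1 both fell. PPARGC1B had 274, 188 and 174 in MALC and 557, 510.2 and 458 in suspension (-1.22 ± 0.16, adjusted p = 0.00106), and PPRC1 had 607, 543 and 483 in MALC and 1137, 1384 and 1349 in suspension (-1.22 ± 0.11, adjusted p = 0.000343). DDIT3, a transcription factor of the stress response, had 1956, 1311 and 1466 in MALC and 729, 804 and 744 in suspension, and rose without overlap (1.02 ± 0.14, adjusted p = 0.00127). The remaining calls were TFAM (-0.94) and TFB2M (-0.93), which act in mitochondrial transcription, the nuclear receptor ESRRA (-0.69), and NRF1, the factor named with GCATGCGC above, which was higher in MALC (0.83, adjusted p = 0.00295). Its MALC signals were 638, 956 and 888, against 455, 459 and 439.6 in suspension.

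Cytosolic chaperones and their partners, listed for comparison with the mitochondrial chaperones, were lower in 11 of 13 tested and higher in 1, with a median of -0.35. Of all genes, 23.7% were lower and 19% higher. HSPA8, HSPA1A, AHSA1 and TCP1 were among the 17 listed and were not tested. STIP1, which joins Hsp70 and Hsp90, had 1751, 1720.0 and 1581 in MALC and 2979, 2753 and 2818 in suspension (-0.75 ± 0.07, adjusted p = 0.000323). CCT3 and CCT5, subunits of the cytosolic chaperonin, changed by -0.63 (adjusted p = 0.00038) and -0.60 (adjusted p = 0.000714). The gene that rose was DNAJB6, a J protein (0.28, adjusted p = 0.0171).

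**Figure D5:**
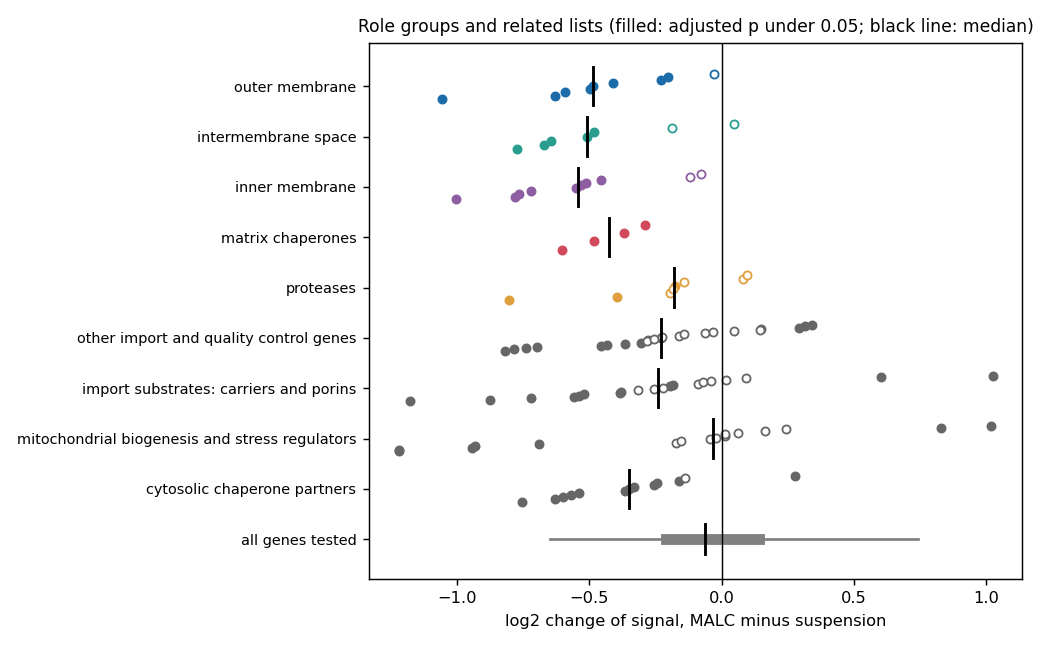
Log2 change in MALC minus suspension of each tested gene in the 5 role groups and the 4 further lists, filled where the adjusted threshold was passed, with black lines at the medians; the bottom bar gives the 5th, 25th, 75th and 95th percentiles of all genes tested (-0.65, -0.21, 0.14 and 0.74). Medians run from -0.54 (inner membrane) to -0.03 (regulators), against -0.06 for all genes.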

How the data were processed

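RNA of 6 RL samples (3 MALC, 3 suspension) was measured, each on 1 array, from 200 ng of total RNA per the labels' protocols. The deposited values were intensities on a linear scale, with 1 value for each probe set on each array. MAS5 is the only tool in the submitters' processing notes, and its version, scaling and background correction are not given in the sources used here. Were the arrays scaled to a common level, a shift of all transcripts would not be seen.

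Intensities were set to log2(value + 16). Of 54675 probe sets, 62 controls were left out, 41091 named 1 gene symbol, 1801 several and 11721 none. Symbols were updated through a RefSeq table, which held 41037 of those with 1 symbol, and 54 kept the annotation's symbol. Probe sets at or above the 40th percentile of mean log2 signal were kept (32768, a signal of 53.4), and the brightest stood for its gene. The test of MALC against suspension used limma 3.58.1 under R 4.3.3 (two-sided, lmFit and eBayes with trend, no covariate), adjusted over 13765 genes with a threshold of 0.05. Kept probe sets were tested in a fit of their own. The script was tested on simulated data. Adjusted p-values of genes come from limma, means ± SD from the linear intensities.

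The members and lists were chosen with earlier results of these data known. Named by rule were the 3 largest called changes without overlap per role group, the 2 smallest member changes, pairs differing by over 0.5, and 3 genes per further list. Other genes, the shared probe sets and the promoters printed were chosen after their values were seen.

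The sample titles number the samples 1 to 3 in both groups. Between same-numbered samples, deviations from group means had correlations of 0.28, 0.18 and 0.19. All exceed 0.1, but samples 2 and 3 crossed gave 0.15 and 0.2, and no label states the meaning of a number. The number entered as a replicate block in an alternative. In all, 21 alternatives were run.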

Additional observations from a re-analysis of the deposited data

How the results depend on the processing

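Over 21 alternatives, 18 to 33 members were lower in MALC. The number of all genes lower moved as well. Of 13765 genes, 1112 were lower with samples 2 and 3 averaged (18 members) and 5230 with array weights (33 members), against 3266 in the main fit. None was higher, except PMPCB under quantile normalization (1 member higher) and with array weights (1 higher), and TOMM20 with the mean of probe sets (1 higher; 0.26 on the log2 scale, adjusted p = 0.00288). Leaving out each array in turn gave 24 to 32 members lower, an outer membrane median of -0.58 to -0.41, and 2 to 4 member probe sets higher. Of all genes, 2104 to 3626 were lower in those fits. With the sample number as a replicate block, 29 members and 3550 of all genes were lower, and no other member call changed. Without filter on low values, 5 member probe sets were higher. Those of TIMM8A, TRAP1 and PMPCB among them were dim, with signals below the filter at 53.4. The share of all probe sets that were higher is not given for this fit or for those leaving out an array. These counts of higher probe sets therefore do not set the members apart. Without probe sets of the _s_at, _x_at and _a_at types, which leaves 30 members, TIMM8B gave 0.16 (adjusted p = 0.144). The intermembrane space median was then -0.37 (6 genes) and the chaperone median -0.98 (3 genes). This chaperone median was the value of HSPD1 on a dim probe set (89.2 in MALC, 189 in suspension), and HSPE1 dropped out. Over all genes 8880 changed with array weights, 2347 with samples 2 and 3 averaged (18 members lower) and 2807 without suspension 2 and suspension 3, against 5877. This last setting, chosen after seeing the data because of the stromal markers, rests on 1 suspension array, with the spread from the MALC arrays alone. It gave an inner membrane median of -0.72 and a protease median of -0.29. The cause of these shifts was not tested. Arrays give no depth, and TIMM23 was limited by its signal.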

Other observations

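The 12 YME1L1 probe sets below the filter had mean signals of 11.6 to 51.7 over MALC and suspension. In all, 23 member probe sets of 12 genes were below it.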
